A study of Mus musculus with 2 samples.

Results

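Ccr2 macrophages with little Arg1 were described among CD45+ cells from mouse hearts. They are cells that held transcripts of complement C1q and of the chemokine receptor CCR2, few transcripts of arginase 1, and few transcripts that mark resident macrophages or other leukocytes. Of 11078 cells kept from 2 libraries, 700 were such cells, 121 of 5641 in the Control library and 579 of 5437 in the TTS library. They were chosen by their counts of unique molecular identifiers (UMIs), each of which stands for 1 captured RNA molecule. A member had at least 4 UMIs of C1qa, C1qb and C1qc together, at least 2 of Ccr2 and under 5 of Arg1. It also had at most 1 UMI of Timd4, Lyve1, Folr2 and Cd163 together, at most 1 of Cd209a and Flt3, at most 2 of Cd79a, Cd79b and Ms4a1, and at most 1 of Cd3d and Cd3e. S100a8 and S100a9 made up under 1% of its UMIs. The 18 genes of the rule are therefore a description and not a finding.

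The study asked how leukocytes of the heart respond in a mouse model of Takotsubo syndrome, a stress cardiomyopathy. Female wild-type C57BL6 mice of 8 to 16 weeks received a single intraperitoneal injection of isoproterenol (ISO), a β-adrenergic agonist, at 200 mg/kg (TTS) or of vehicle (Control), and live CD45+ cells were sorted from the hearts 24 hours later. The descriptions give the ISO dose for both samples, and Control was identified by its title and by the methods of the study. Cells of 3 hearts were pooled for each group and tagged on the 10x Genomics platform, so each group is 1 library. The pooled hearts cannot be told apart, no difference below has a replicate check, and no test was made. All intervals are exact 95% intervals that cover counting error only.

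Macrophages that carry CCR2 derive from blood monocytes, which follow the ligand CCL2 into the heart, whereas resident macrophages carry LYVE1, TIMD4 or FOLR2 and renew themselves with little input from the blood. A monocyte that becomes a macrophage loses Ly6c2 and takes on C1q, the opening component of the classical complement pathway. It can present antigen on MHC class II molecules, release interleukin 1β and chemokines, or produce matrix proteins. Arginase 1, which splits arginine into ornithine and urea, is a usual mark of the wound-healing macrophage, and the cells described here are those of the CCR2 lineage in which it was low.

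The marker genes of macrophages were present in both libraries, as the label states. In members of the Control and TTS libraries the summed level, in CPM (the UMIs of a gene over all UMIs of the cells summed, scaled to a common total), was 666 and 381 for Csf1r, the receptor of the macrophage growth factor CSF1. The level was 289 and 122 CPM for Emr1, which encodes F4/80, and 341 and 562 CPM for Cd68, a protein of lysosomal membranes. Mertk, a receptor for dying cells, was at 50.7 and 29.3 CPM. The C1q genes lie side by side on chromosome 4 (mm10, C1qb from 136880129 to C1qa at 136898803), Ccr2 lies on chromosome 9 (124101950 to 124113557) and Arg1 on chromosome 10 (24915221 to 24927484). Members held a median of 8955 UMIs and 2784 genes in Control and 8960 UMIs and 2695 genes in TTS, while kept cells of all kinds had medians of 4790 and 8537 UMIs. Members without lymphocyte transcripts, described below, were shallower in Control, with medians of 6838 UMIs and 2240 genes against 8578 UMIs and 2615 genes in TTS.

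Many Control members carried RNA of a second lineage. At least 2 UMIs of T cell, NK cell or ILC2 markers were found in 66 of 121 Control members (54.5%, 45.2 to 63.6) and in 96 of 579 TTS members (16.6%, 13.6 to 19.9). ILC2 are group 2 innate lymphoid cells, and Areg, which is on their list, was not counted here. These barcodes also held C1q, with a median of 64.5 UMIs in Control and 34 in TTS. Summed marker levels in Control and TTS members were 168 and 23.6 CPM for T cells, 580 and 90.5 CPM for NK cells, 1127 and 469 CPM for ILC2, and 269 and 66.9 CPM for B cells. Whether such a barcode is a pair of cells in 1 droplet was not tested. Leaving them out keeps 55 Control and 483 TTS members, called members without lymphocyte transcripts. The name covers the T cell, NK cell and ILC2 genes counted above, and no B cell gene. In these members B cell markers summed to 235 and 64.1 CPM, with at least 2 UMIs in 17 Control and 28 TTS barcodes. The ILC2 list summed above includes Areg, and here it came to 164 and 314 CPM, with at least 2 UMIs in 7 and 87 barcodes. Values in these members are given where a gene's ratio moved by over 1.5 times, and for the main genes and lists.

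Markers of other cell types were also summed. Those of type 1 and type 2 conventional dendritic cells were at 581 and 499 CPM and at 183 and 441 CPM. At least 2 UMIs of the type 1 list were in 78.5% of Control and 79.8% of TTS members. For the type 2 list the shares were 27.3% and 72.0%. Markers of migratory dendritic cells were at 73.5 and 53.3 CPM, and of plasmacytoid dendritic cells at 424 and 332 CPM. Those of fibroblasts were at 107 and 276 CPM, of cardiomyocytes at 98.1 and 57.9 CPM, and of platelets at 795 and 389 CPM. The fibroblast genes Col1a1, Pdgfra and Lum were at 0 in members of both libraries, as were Nppa of cardiomyocytes and Gp9 and Gp1bb of platelets. Other genes of these lists were present, and Col3a1 was at 0 in Control only. At least 2 UMIs of fibroblast markers were in 28.1% of Control and 62.5% of TTS members. For cardiomyocyte markers the shares were 24.8% and 9.50%, and for platelet markers 71.1% and 23.5%. Neutrophil markers summed to 469 CPM in Control and 921 CPM in TTS, with Ly6g and Camp at 0 in both. Without lymphocyte transcripts they summed to 974 and 1013 CPM. The sums include S100a8 and S100a9, which the rule limits. Nonclassical monocyte markers summed to 1457 and 914 CPM, or 1553 and 938 CPM without lymphocyte transcripts. Endothelial markers stayed at 27.0 and 23.8 CPM, and red cell markers at 6.76 and 0.666 CPM. Of all barcodes, 15 sequences occurred in both libraries, and 0 of these were members.

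Myeloid RNA was found in B cell barcodes of the TTS library. There, 80 barcodes met a B cell gate with at most 1 UMI of C1q, and they held 4008 CPM of Spp1, 1815 CPM of Fn1 and 714 CPM of Arg1, against 1.91, 17.9 and 2.48 CPM in 1193 Control B cells. The TTS sum came from part of the barcodes, since the median TTS B cell held 222 CPM of Spp1 and the lower quartile was 0. The B cells had a median of 3531 UMIs in Control and 7275.5 UMIs in TTS. Whether such barcodes hold free RNA or a second cell was not tested. Shares of barcodes with a UMI are set beside these cells below, and the part of such RNA in the level of each gene was not tested.

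The members made up a larger share of the TTS library. They were 2.15% (1.78 to 2.56) of kept Control cells and 10.6% (9.84 to 11.5) of kept TTS cells, a 4.96-fold difference. Without lymphocyte transcripts the shares were 0.975% (0.735 to 1.27) and 8.88% (8.14 to 9.67), a 9.11-fold difference. B cells numbered 1193 in Control and 80 in TTS, and with them left out of the denominator the members were 2.72% and 10.8%. Of cells with C1q, 5.42% (4.51 to 6.44) were members in Control and 29.5% (27.5 to 31.6) in TTS. The lymphocyte barcodes were more frequent in the group with fewer members, so the difference between libraries was larger without them. The difference was smaller at equal depth per cell. After every cell was thinned to 4000 UMIs, 5.33% of Control and 10.5% of TTS cells met the rule, a log2 ratio of 0.98 beside 2.31. Thinning also loosens the limits on other lineages, and the part of depth was not tested. With no limits on other lineages the shares were 4.95% and 13.4%, and with markers of any other cell type left out, 12 Control and 124 TTS members were left. A share of sorted cells does not say whether the members rose in number or other leukocytes fell.

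**Figure D1:**
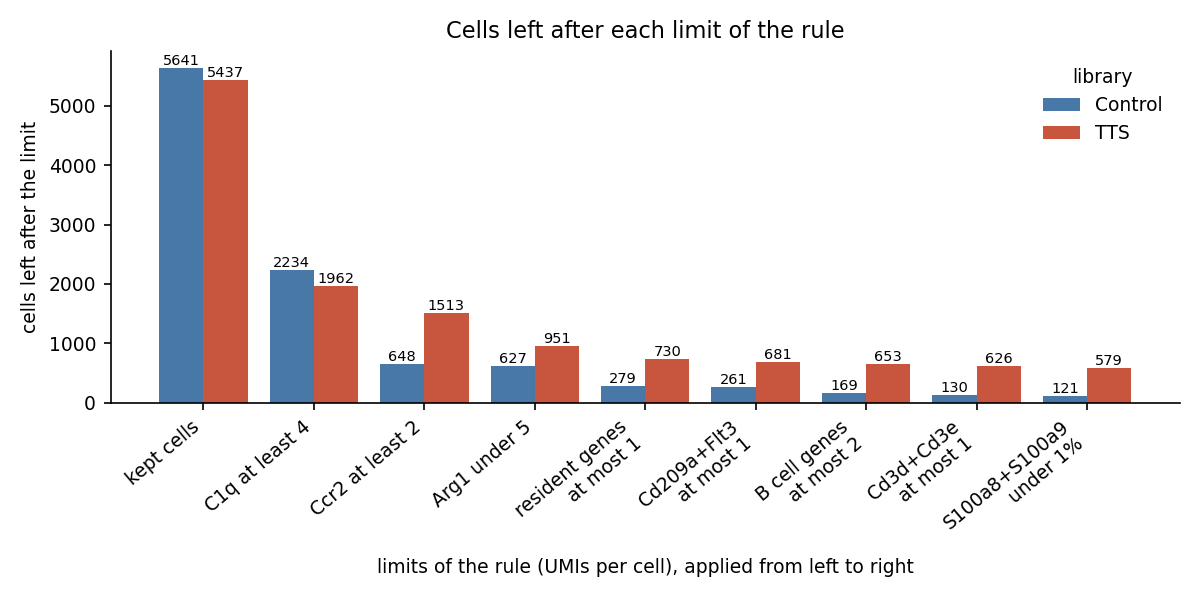
Cells left after each limit of the rule in the Control and TTS libraries (bars, number of cells on a linear axis from 0, with the limits applied from left to right). The 2 libraries start at 5641 and 5437 kept cells, hold 648 and 1513 cells with both C1q and Ccr2, and end at 121 and 579 members.

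The limits removed different cells in the libraries. C1q was met by 2234 Control and 1962 TTS cells, and Ccr2 in addition by 648 and 1513. The limit on Arg1 removed 21 of these in Control and 562 in TTS, and the limit on resident genes removed a further 348 and 221. Of Ccr2 macrophages of any Arg1 level, 121 of 127 in Control (95.3%, 90.0 to 98.2) and 579 of 920 in TTS (62.9%, 59.7 to 66.1) had little Arg1. Just inside and outside the limits, 21 Control and 48 TTS members had exactly 2 UMIs of Ccr2, and 30 and 34 cells were left out with 1. For Arg1, 6 and 25 members had 4 UMIs, and 1 and 20 cells were left out with 5. Arg1 was at 0 UMIs in 100 Control and 353 TTS members. The median C1q count was 64 UMIs in Control, with a range of 5 to 407, and 24 UMIs in TTS, with a range of 4 to 218.

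Gene levels were compared as the log2 ratio of summed CPM, TTS over Control. Among 5664 genes with a mean of at least 20 CPM, 602 were at least 2-fold higher in TTS (10.6%) and 648 at least 2-fold lower (11.4%). With mitochondrial and ribosomal protein genes and the transcript Gm26924 left out of the totals, 518 were higher and 931 lower, and the median of all genes tested moved by -0.15 log2. Among 5516 genes tested in the members without lymphocyte transcripts, 602 were higher (10.9%) and 640 lower (11.6%). Lists are read against these shares below.

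**Figure D2:**
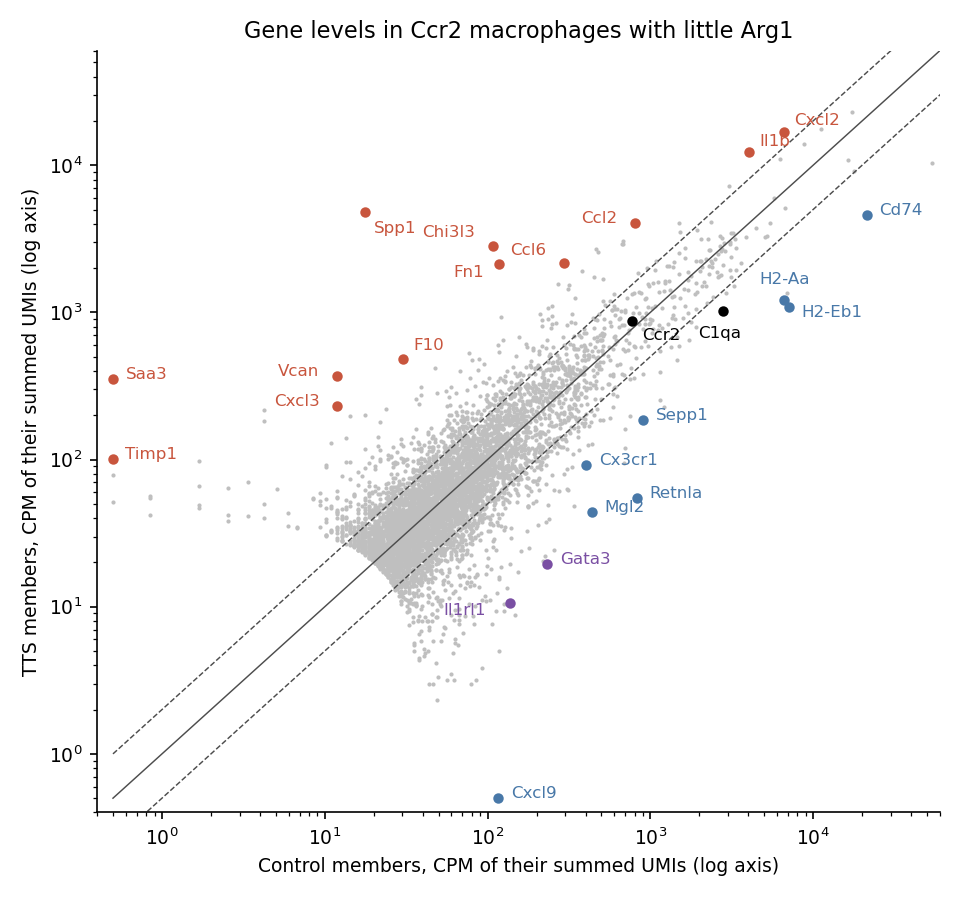
Summed level of each gene in Control members (x axis, CPM, log axis) against TTS members (y axis, CPM, log axis), with a solid line at equal levels, dashed lines at a 2-fold difference and other genes tested in grey. Spp1, Fn1 and Chi3l3 lie above the upper line and H2-Aa and Mgl2 below the lower line; lymphocyte genes such as Gata3 are purple, genes of the rule are black, and genes at 0 UMIs are drawn at 0.5 CPM.

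Of the markers of these cells, Il1b, Itgam, Fcgr1 and Cd14 were higher in TTS members. Il1b, which encodes interleukin 1β, was at 4051 CPM in Control and 12212 CPM in TTS, a log2 ratio of 1.59, or 1.28 without lymphocyte transcripts. The median barcode held 2557 CPM of Il1b in Control and 9212 CPM in TTS. Itgam, the integrin CD11b, was at 173 and 607 CPM, a log2 ratio of 1.81 and 1.27. Fcgr1, the high-affinity IgG receptor CD64, was at 131 and 397 CPM, 3.03-fold higher, and had a log2 ratio of 1.23 without lymphocyte transcripts. Cd14, which hands lipopolysaccharide to TLR4, was at 1933 and 3657 CPM, a ratio of 0.92 and 0.66. After each barcode was thinned to 2000 UMIs, Il1b was found in 87.7% of TTS members and 67.5% of TTS B cells, Cd14 in 91.9% and 60.0%, Itgam in 65.1% and 37.5%, and Fcgr1 in 52.7% and 18.8%. The summed level of Il1b in TTS B cells was 11316 CPM, although the median TTS B cell held 847 CPM. Ccr2 itself, on which the cells were chosen, was at 773 and 873 CPM.

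C1q was lower in TTS members although each had to hold it. C1qa was at 2791 and 1018 CPM, C1qb at 3151 and 1753 CPM, and C1qc at 1740 and 646 CPM, with log2 ratios of -1.46, -0.85 and -1.43. These genes were used in the rule and serve as a description. Macrophage identity genes did not shift as a list. Of 20 tested, 2 were at least 2-fold higher and 2 lower, with a median log2 ratio of 0.45, or 0.10 without lymphocyte transcripts. Cx3cr1, the fractalkine receptor, was at 404 and 92.4 CPM, a log2 ratio of -2.13, and Apoe, the main lipid carrier of macrophages, at 6736 and 5084 CPM, a ratio of -0.41.

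Genes of antigen presentation were lower in TTS members. H2-Aa and H2-Eb1 encode chains of the MHC class II molecules that show peptides to CD4 T cells. The 250 bases before their starts are printed because both genes were lower by similar ratios and share a short motif. The sequences are those of RefSeq on GRCm38.p6, 5′ to 3′ on the strand of the gene, and capitals mark CTGATTGG, the inverted CCAAT letters known from the Y box of MHC class II promoters. H2-Aa lies at chr17:34287824-34288073 on the minus strand and H2-Eb1 at chr17:34305617-34305866 on the plus strand.
H2-Aa: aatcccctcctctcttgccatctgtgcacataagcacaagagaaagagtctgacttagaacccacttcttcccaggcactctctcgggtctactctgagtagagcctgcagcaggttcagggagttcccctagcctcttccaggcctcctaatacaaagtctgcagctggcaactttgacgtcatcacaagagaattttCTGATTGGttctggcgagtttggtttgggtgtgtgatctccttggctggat
H2-Eb1: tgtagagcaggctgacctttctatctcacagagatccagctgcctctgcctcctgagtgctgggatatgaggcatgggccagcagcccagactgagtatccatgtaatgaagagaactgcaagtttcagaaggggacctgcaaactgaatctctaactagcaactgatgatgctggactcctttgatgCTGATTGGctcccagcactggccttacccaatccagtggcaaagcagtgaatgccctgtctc
The motif ended 43 bases before the start of H2-Aa and 54 bases before that of H2-Eb1. Searched on both strands, it was in 2 of the 6 promoters of the MHC class II list that RefSeq gave, and in 1258 of all 32851 promoters (3.83%). It was also in the promoters of Spp1, Cxcl9, Cxcl10 and Il6, of which Spp1 was higher in TTS. H2-Ab1, Cd74, Ciita and Cd86 had no entry. A match of letters is a description and not a binding site.

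The list held 10 genes of MHC class II and costimulation, of which 9 were tested. Of these, 5 were at least 2-fold lower and 1 higher, and the median log2 ratio was -2.21, against -0.01 over all genes tested. Without lymphocyte transcripts 7 were lower and 1 higher, with a median of -2.52. H2-Aa was at 6647 CPM in Control and 1206 CPM in TTS, a log2 ratio of -2.46, or -2.79 without lymphocyte transcripts. H2-Ab1, which encodes the β chain that pairs with H2-Aa, was at 6887 and 1358 CPM, a ratio of -2.34. H2-Eb1 was at 7137 and 1097 CPM, a ratio of -2.70.

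Cd74, the invariant chain that escorts class II molecules to the endosome, was at 21295 and 4608 CPM, a ratio of -2.21. Ciita, the coactivator that switches on class II genes, was at 72.7 and 13.5 CPM, a ratio of -2.43. H2-DMa and H2-DMb1, which load the peptide, had smaller ratios of -0.66 and -0.72. The costimulatory genes parted from the others, since Cd86 had a ratio of -0.03 and Cd80 one of 1.54.

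The class II genes were uneven among TTS members. H2-Aa was at 0 UMIs in 252 of 579 TTS members and in 6 of 121 Control members. The median TTS member held 120 CPM, with quartiles of 0 and 1556 CPM, and the median Control member held 6428 CPM, with quartiles of 3054 and 10541 CPM. Cd74 was at 0 in 63 TTS members and in 0 Control members. Control monocytes, which were gated as described below, held 534 CPM of H2-Aa, so the level of Control members was above that of monocytes of the same library. Resident macrophages also held less in TTS, 535 against 4272 CPM of H2-Aa, and monocytes had 309 against 534 CPM.

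Genes of resident macrophages were lower in TTS members as well. Of 11 tested, 9 were at least 2-fold lower and 0 higher, with a median log2 ratio of -2.57, or -2.48 without lymphocyte transcripts. The rule had already removed cells with Timd4, Lyve1, Folr2 or Cd163, and these genes are not in the list. Mgl2, a lectin for galactose, was at 440 and 44.3 CPM, a log2 ratio of -3.31, or -3.94 without lymphocyte transcripts. Igf1, insulin-like growth factor 1, was at 112 and 9.32 CPM, a ratio of -3.59. Sepp1, selenoprotein P, was at 902 and 185 CPM, a ratio of -2.29. Mrc1, the mannose receptor CD206, was at 418 and 170 CPM, a ratio of -1.30, and was at 0 UMIs in 336 TTS and 16 Control members. Stab1 and Wfdc17 did not follow, with ratios of 0.38 and 0.95.

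Single genes with the lowest ratios were of mixed origin. Slco2b1, an organic anion carrier, was at 107 and 7.66 CPM, Pmp22, a membrane protein known from myelin, at 139 and 10.7 CPM, and Hpgd, which breaks down prostaglandins, at 219 and 20.3 CPM. Their log2 ratios were -3.79, -3.70 and -3.43, and they were -3.99, -4.04 and -3.63 without lymphocyte transcripts. Cd81, a tetraspanin, was at 688 and 94.5 CPM, a ratio of -2.86. Gata3, a transcription factor of lymphocytes, was at 232 and 19.5 CPM, and was at 0 UMIs in both libraries without lymphocyte transcripts. Il1rl1, Hs3st1 and Tmem64 were also led by these barcodes, since Control levels of 138, 148 and 126 CPM became 17.7, 6.64 and 17.7 CPM without them.

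Retnla, an alternative activation gene, was at 828 and 54.9 CPM, but 1 barcode held 87.9% of its Control UMIs. Cxcl9, an interferon-γ target, had 138 UMIs in Control, all in 2 barcodes, and 0 in TTS, for which a floor of 3 UMIs is 0.499 CPM. Without lymphocyte transcripts it was at 0 in both libraries.

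Matrix genes were higher in TTS members. Of 17 tested, 13 were at least 2-fold higher and 3 lower, with a median log2 ratio of 2.31, or 2.13 without lymphocyte transcripts. Spp1, which encodes osteopontin, was at 17.8 CPM in Control and 4793 CPM in TTS, a log2 ratio of 8.04, or 7.15 without lymphocyte transcripts. It was at 0 UMIs in 110 of 121 Control members and in 118 of 579 TTS members. Among TTS members Spp1 ranged widely, with a median of 671 CPM, quartiles of 106 and 4522 CPM, and a highest value of 129549 CPM.

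Fn1, fibronectin, was at 118 and 2124 CPM, a ratio of 4.16, or 3.46 without lymphocyte transcripts. It was more even, with a median of 1688 CPM in TTS and 34 members at 0. Vcan, the proteoglycan versican, was at 11.8 and 370 CPM, a ratio of 4.92. Thbs1, thrombospondin 1, was at 383 and 1905 CPM, and Tgfbi, a matrix protein that TGF-β induces, at 463 and 2695 CPM, with ratios of 2.31 and 2.54, or 1.62 and 2.13 without lymphocyte transcripts. Timp1, an inhibitor of metalloproteinases, had 0 UMIs in Control and 605 in TTS, at least 39.7-fold higher against a floor of 3 UMIs over the Control members, or at least 15.1-fold without lymphocyte transcripts. Timp2 went the other way, from 234 to 48.9 CPM, a ratio of -2.26, as did Mmp12 and Mmp13, with ratios of -1.51 and -3.76, or -1.54 and -2.94 without lymphocyte transcripts.

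These matrix genes were also found in other cells of the TTS library. After thinning to 2000 UMIs, Spp1 was in 60.8% of TTS members and 42.5% of TTS B cells, Fn1 in 83.6% and 57.5%, and Vcan in 43.0% and 28.8%. In Control members the shares were 4.20%, 8.40% and 1.68%. The TTS members thus stood above the B cells of their library, but the B cells held these transcripts too.

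Genes of classical monocytes were higher in TTS members, with 10 of 13 at least 2-fold higher, 1 lower and a median log2 ratio of 1.29. Without lymphocyte transcripts, 6 of 14 were higher and the median was 0.83. Fn1, Vcan and Thbs1 are in this list and in that of matrix genes. Chi3l3, a chitinase-like lectin, was at 107 and 2836 CPM, a ratio of 4.72, or 3.45 without lymphocyte transcripts, and 1 barcode held 71.7% of its Control UMIs. Reads of Chi3l3 can be shared with its close paralog Chi3l4. Ly6c2, which a monocyte loses on its way to a macrophage, was at 91.3 and 192 CPM, a ratio of 1.06 that became 0.45 without lymphocyte transcripts. Plac8 had ratios of 0.94 and 0.35. Of 7 nonclassical monocyte markers, 4 were at least 2-fold lower and 0 higher, with Ace at 48.2 and 11.5 CPM and Spn at 63.4 and 12.8 CPM. The median ratio was -1.19, or -1.99 without lymphocyte transcripts, where Ace had -2.88.

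Other genes with the highest ratios had mixed roles. Saa3, an acute phase protein, had 0 UMIs in Control and 2131 in TTS, or 355 CPM, at least 140-fold higher against the same floor, or at least 58.4-fold without lymphocyte transcripts. It was at 0 UMIs in 373 of 579 TTS members. Saa3 was found in 20.6% of thinned TTS members and 11.2% of TTS B cells. F10, coagulation factor X, was at 30.4 and 484 CPM, a log2 ratio of 3.97, or 3.12 without lymphocyte transcripts. Slc7a11, which imports cystine for glutathione, was at 14.4 and 199 CPM, a ratio of 3.75 and 3.15. Adora2b, an adenosine receptor, was at 11.0 and 129 CPM, a ratio of 3.50.

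Dmkn, which encodes dermokine, was at 4.23 and 183 CPM, a ratio of 5.30, and rested on 5 Control UMIs. AA467197 was at 4.23 and 218 CPM, but thinned TTS members and B cells held it in 16.6% and 17.5%, so the share in members was not above that in B cells. Without lymphocyte transcripts the ratio of Dmkn was 4.05 and that of AA467197 4.35. Of the 4 genes that joined the most changed only without lymphocyte transcripts, Lcn2, Ltb4r1, Ecm1 and Ccl24, the ratios in those members were 5.06, 4.04, 3.94 and 3.82. In all members Lcn2 was at 1.69 CPM in Control and 98.5 CPM in TTS, and Ccl24 at 13.5 and 139 CPM. The ratio of Lcn2 thus rested on very few Control UMIs.

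**Figure D3:**
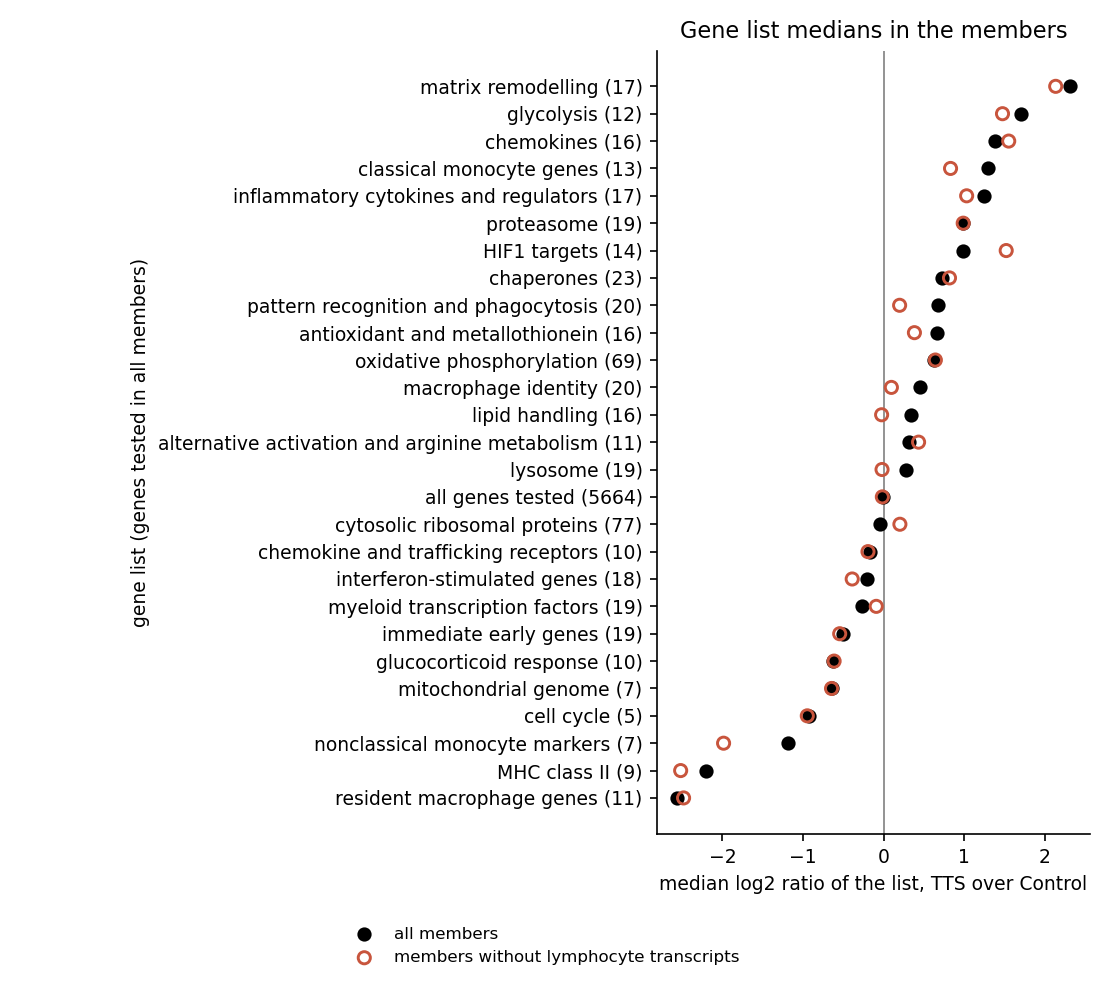
Median log2 ratio, TTS over Control, of each gene list (x axis) in all members (black, 121 Control and 579 TTS) and in members without lymphocyte transcripts (open, 55 and 483), with the number of genes tested in parentheses. Lists of cell type markers, apart from nonclassical monocytes, and the adrenergic receptor list with 1 gene tested are not drawn. Of the lists drawn, matrix genes lie highest at 2.31. Resident macrophage and MHC class II genes lie lowest at -2.57 and -2.21, with all genes tested at -0.01.

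Several chemokines that draw neutrophils and monocytes were higher in TTS members. Cxcl1, Cxcl2 and Cxcl3 encode ligands of the neutrophil receptor CXCR2. They lie together on chromosome 5, and the 250 bases before their starts are printed because all 3 hold a κB motif of NF-κB, shown in capitals, that was searched as GGGA, any base and TTTCC. The sequences are those of RefSeq on GRCm38.p6, all from the plus strand, at chr5:90890995-90891244 for Cxcl1, chr5:90903649-90903898 for Cxcl2 and chr5:90785851-90786100 for Cxcl3.
Cxcl1: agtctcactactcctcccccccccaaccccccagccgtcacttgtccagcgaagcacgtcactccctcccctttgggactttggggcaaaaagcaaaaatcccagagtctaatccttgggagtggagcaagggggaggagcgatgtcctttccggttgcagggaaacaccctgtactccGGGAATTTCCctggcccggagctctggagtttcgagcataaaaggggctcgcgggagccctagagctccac
Cxcl2: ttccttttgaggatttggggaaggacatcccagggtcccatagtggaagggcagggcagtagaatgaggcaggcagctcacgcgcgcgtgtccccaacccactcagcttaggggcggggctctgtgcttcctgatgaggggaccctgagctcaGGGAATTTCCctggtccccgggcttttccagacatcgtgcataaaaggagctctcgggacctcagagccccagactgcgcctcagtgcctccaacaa
Cxcl3: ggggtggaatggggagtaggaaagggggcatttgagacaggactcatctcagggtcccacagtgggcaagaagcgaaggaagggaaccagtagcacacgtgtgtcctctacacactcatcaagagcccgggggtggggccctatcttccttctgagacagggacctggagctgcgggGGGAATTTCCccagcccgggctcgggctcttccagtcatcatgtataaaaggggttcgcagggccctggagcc
The motif ended 61, 87 and 63 bases before the starts. On both strands it was in 3 of the 15 chemokine promoters with an entry and in 117 of 32851 promoters in all (0.356%), and also in Il6 and Nfkbia among 13 promoters of the cytokine list.

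Of 16 chemokine genes tested, 9 were at least 2-fold higher and 3 lower, with a median log2 ratio of 1.38, or 1.55 without lymphocyte transcripts. Cxcl2 was at 6645 and 16920 CPM, a ratio of 1.35, or 1.08 without lymphocyte transcripts. Cxcl1 was at 309 and 819 CPM, a ratio of 1.41, and Cxcl3 at 11.8 and 232 CPM, a ratio of 4.24. Cxcl3 rested on 14 Control UMIs, 57.1% of them in 1 barcode, and had a ratio of 3.09 without lymphocyte transcripts.

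Ccl2, the ligand of CCR2, was at 804 and 4081 CPM, a log2 ratio of 2.34, or 2.18 without lymphocyte transcripts, and the median member held 112 CPM in Control and 2036 CPM in TTS. Ccl7, a further CCR2 ligand, was at 234 and 897 CPM, a ratio of 1.93, and at 95.2 and 820 CPM without lymphocyte transcripts, a ratio of 3.09. Ccl12, which also binds CCR2, was at 358 and 328 CPM. The monocyte chemokines Ccl6 and Ccl9 were at 294 and 2150 CPM and at 314 and 1453 CPM, with ratios of 2.87 and 2.21. Ccl3 and Ccl4, inflammatory chemokines, had ratios near 0, of -0.01 and 0.06. Cxcl16, a membrane-bound ligand of CXCR6, was lower at 513 and 185 CPM. Ccl5 had a ratio of -1.36 in all members and of 0.85 without lymphocyte transcripts, so its direction rested on those barcodes. Ccl2 was found in 75.6% of thinned TTS members and 47.5% of TTS B cells.

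Cytokines and regulators followed in part. Of 17 tested, 10 were at least 2-fold higher and 0 lower, with a median log2 ratio of 1.24, or 1.03 without lymphocyte transcripts. Irg1, which makes itaconate, was at 22.0 and 181 CPM, a ratio of 3.01, or 2.04 without lymphocyte transcripts, with UMIs in 6 Control members. Clec4e, a receptor for damaged cells, was at 314 and 1533 CPM, Osm, the cytokine oncostatin M, at 87.9 and 407 CPM, and Ptgs2, cyclooxygenase 2, at 156 and 677 CPM, with ratios of 2.28, 2.20 and 2.12. Without lymphocyte transcripts their ratios were 1.29, 1.62 and 1.70. Tnf was at 1032 and 1574 CPM, a ratio of 0.61, and Nlrp3, the inflammasome sensor, at 510 and 523 CPM, a ratio of 0.04. Interferon-stimulated genes were not higher as a list, with 1 of 18 at least 2-fold higher, 4 lower and a median of -0.20, or -0.39 without lymphocyte transcripts.

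Glycolysis genes were higher in TTS members, with 8 of 12 at least 2-fold higher, 0 lower and a median log2 ratio of 1.71, or 1.47 without lymphocyte transcripts. Pkm, the last enzyme of the path, was at 271 and 1558 CPM, and Ldha, which makes lactate, at 249 and 834 CPM, with ratios of 2.52 and 1.74. Gapdh was at 77.8 and 358 CPM, a ratio of 2.20, and its reads can be shared with pseudogenes. Of 14 HIF1 targets, 6 were at least 2-fold higher and 0 lower, with a median of 0.98, or 1.52 without lymphocyte transcripts. Hif1a itself was at 58.3 and 267 CPM, a ratio of 2.18, Vegfa at 27.9 and 113 CPM, and Slc2a1, the glucose carrier GLUT1, at 45.7 and 140 CPM. Nuclear genes of oxidative phosphorylation had a median of 0.63 over 69 genes, with 8 at least 2-fold higher, a share near that of all genes, and 0 lower, and 7 genes of the mitochondrial genome a median of -0.64. The median member held 3.62% mitochondrial UMIs in Control and 2.05% in TTS.

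Smaller shifts were seen in protein handling. Of 19 proteasome genes, 9 were at least 2-fold higher and 0 lower, with a median of 0.98, while Psmb9 of the immunoproteasome had a log2 ratio of -0.77. Of 23 chaperones, 7 were higher and 2 lower, with Dnajb1 at 331 and 88.7 CPM. Lysosomal genes had a median of 0.28, or -0.02 without lymphocyte transcripts, yet the proteases Ctsl and Ctsd were at 122 and 935 CPM and at 211 and 969 CPM, with ratios of 2.94 and 2.19. Ribosomal protein genes had a median of -0.04 over 77 genes, or 0.20 without lymphocyte transcripts. Of 19 immediate early genes, 17 had a ratio below 0, and the median was -0.51, or -0.54 without lymphocyte transcripts. Past 2-fold, 1 was higher and 3 lower, with Egr1 at 1462 and 473 CPM and Ier3 at 677 and 2898 CPM.

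Within the TTS library the members were set beside 3 other gates. Arg1-high cells met the same rule with at least 5 UMIs of Arg1 and numbered 341, against 6 in Control. Resident macrophages had at least 2 UMIs of Timd4, Lyve1, Folr2 and Cd163 and at most 1 of Ccr2, and numbered 192 in TTS and 555 in Control. Monocytes had at most 1 UMI of C1q and at least 2 of Ccr2 and of Ly6c2, and numbered 840 in TTS and 83 in Control. The genes of each gate are a description.

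Members and Arg1-high cells were close. Of 5333 genes tested, 5 were at least 2-fold higher in the members (0.0938%) and 7 lower (0.131%). Tmem176b, a membrane protein of dendritic cells and macrophages, was at 197 CPM in members and 77.8 CPM in Arg1-high cells, a log2 ratio of 1.34. H2-Aa was at 1206 and 599 CPM, a ratio of 1.01. Spp1 was lower in members, at 4793 and 10230 CPM, a ratio of -1.09, as were Pdpn, or podoplanin, at 70.6 and 172 CPM, Timp1 at 101 and 245 CPM, and Ccl24, an eosinophil chemokine, at 139 and 332 CPM. Ccl5 had a ratio of 1.28, or 0.50 without lymphocyte transcripts. Of 13 glycolysis genes, 0 were past 2-fold and the median was -0.31. Arg1-high cells were deeper, with a median of 12917 UMIs against 8960 in members, and a limit set in UMIs admits more cells at greater depth.

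Members and resident macrophages differed more. Of 5721 genes, 215 were at least 2-fold higher in members (3.76%) and 394 lower (6.89%). Dmkn was at 183 CPM in members and 11.3 CPM in resident cells, Chi3l3 at 2836 and 288 CPM, and Fn1 at 2124 and 223 CPM, with log2 ratios of 3.97, 3.30 and 3.25. Cbr2, a carbonyl reductase, was at 14.0 and 472 CPM, Ltc4s, leukotriene C4 synthase, at 5.66 and 187 CPM, and Pmp22 at 10.7 and 297 CPM, with ratios of -5.07, -5.03 and -4.79. All 14 resident macrophage genes tested were at least 2-fold lower, with a median of -3.99, against -1.94 in Control. Of 17 matrix genes, 11 were higher and 3 lower.

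Members and monocytes were again close in TTS. Of 5294 genes, 37 were at least 2-fold higher in members (0.699%) and 34 lower (0.642%). H2-Eb1 was at 1097 CPM in members and 258 CPM in monocytes, a log2 ratio of 2.09. H2-Aa, at 1206 and 309 CPM, had a ratio of 1.96, and Cd74, at 4608 and 1318 CPM, one of 1.81. Pf4, platelet factor 4, which resident macrophages also express, was at 357 and 111 CPM. Lcn2, a siderophore-binding protein, was lower in members, at 98.5 and 446 CPM, as was Mgst1, at 38.3 and 171 CPM. Of 13 classical monocyte genes 7 were at least 2-fold lower in members and 0 higher, with a median of -1.11, and Ly6c2 was used in the gate. In Control the same comparison rested on 83 monocytes, and of 6040 genes 380 were at least 2-fold higher in members and 676 lower. There H2-Aa was at 6647 CPM in members and 534 CPM in monocytes.

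**Figure D4:**
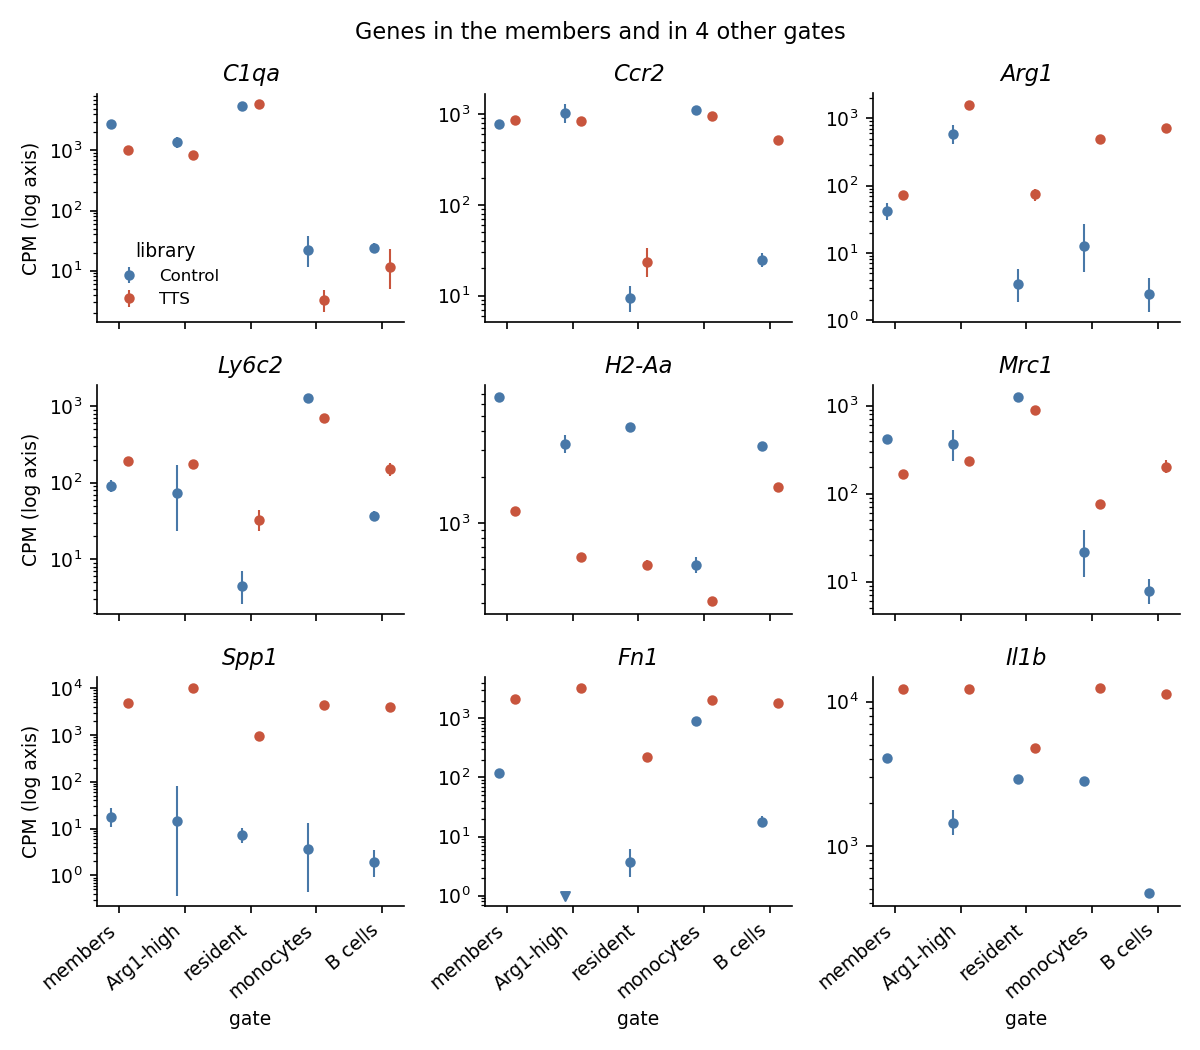
Level of 9 genes (y axis, CPM, log axis) in the members and in Arg1-high cells, resident macrophages, monocytes and B cells (x axis) of the Control and TTS libraries, with exact Poisson 95% intervals; a triangle at 1 CPM marks a gate with 0 UMIs. In TTS, Fn1 was at 2124 CPM in members, 3253 CPM in Arg1-high cells, 223 CPM in resident macrophages, 2014 CPM in monocytes and 1815 CPM in B cells.

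The differences between libraries were partly shared with the other gates. Spp1 was at 7.35 and 967 CPM in resident macrophages and at 3.66 and 4321 CPM in monocytes, from 30 and 2 Control UMIs. Il1b was at 2895 and 4777 CPM in resident macrophages and at 2806 and 12412 CPM in monocytes, beside 4051 and 12212 CPM in members. Ccl2 was at 1020 and 2885 CPM in resident macrophages and at 126 and 5214 CPM in monocytes. Fn1 was already at 909 CPM in Control monocytes, against 118 CPM in Control members, and the TTS levels of 2014 and 2124 CPM lay close together. No test of these differences between gates was made.

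The members varied with their C1q level. They were split in each library by summed C1q CPM into low, middle and high groups of 41, 40 and 40 cells in Control and of 193 cells each in TTS. The cuts were set within each library, so groups of the same name need not hold equal C1q. H2-Aa went up with C1q in Control, from 4281 to 6899 and 8933 CPM, and less in TTS, from 1016 to 1116 and 1531 CPM. Mgl2 followed in both, from 264 to 768 CPM in Control and from 9.72 to 119 CPM in TTS. Plac8 went down, from 646 to 108 CPM in Control and from 809 to 591 CPM in TTS. Fn1 went from 246 to 8.48 CPM in Control but only from 2267 to 1808 CPM in TTS, and Il1b from 4909 to 2894 CPM and from 12399 to 11211 CPM.

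Lymphocyte transcripts were found in 28, 26 and 12 of the Control groups and in 31, 31 and 34 of the TTS groups. Without those barcodes, 19, 18 and 18 Control members remained. The low C1q group of Control then held 363 CPM of Ly6c2, 486 CPM of Fn1 and 1657 CPM of Thbs1, and the high group 0, 0 and 7.48 CPM. These monocyte genes were thus highest in the Control members with least C1q. Few barcodes carried Fn1, which was at 0 UMIs in 45 of the 55 Control members without lymphocyte transcripts. In TTS the high group held 166 CPM of Ly6c2, 1881 CPM of Fn1 and 1616 CPM of Thbs1. The high groups were not at equal C1q. C1qa was at 2388 CPM in the TTS high group and at 1364, 3473 and 5584 CPM in the Control low, middle and high groups.

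**Figure D5:**
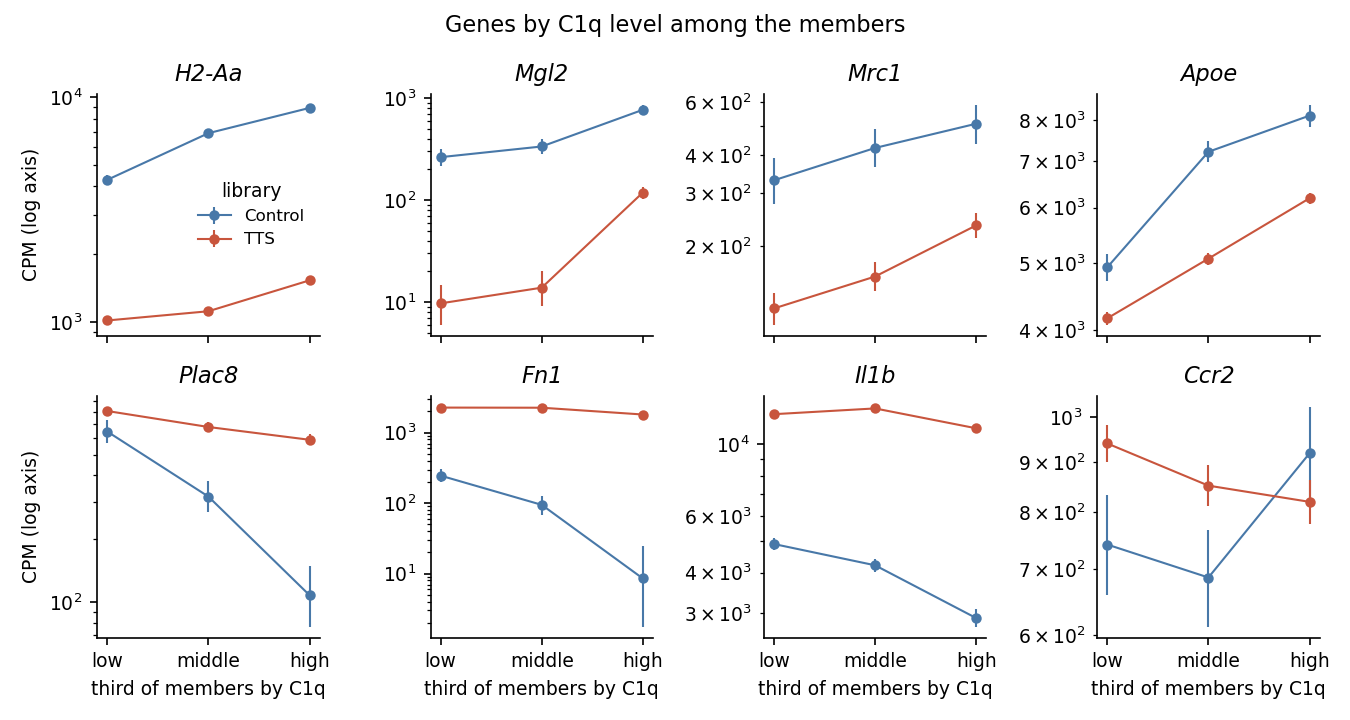
Level of 8 genes (y axis, CPM, log axis) in members with low, middle and high C1q (x axis) in the Control and TTS libraries, with exact Poisson 95% intervals. H2-Aa rises from 4281 to 8933 CPM in Control and from 1016 to 1531 CPM in TTS, and Fn1 falls from 246 to 8.48 CPM in Control and from 2267 to 1808 CPM in TTS.

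A few UMIs of Arg1 went with other levels as well. In TTS, 226 members held 1 to 4 UMIs of Arg1 and 353 held 0. Those with Arg1 had 5910 CPM of Spp1, 2571 CPM of Fn1, 4898 CPM of Ccl2 and 321 CPM of Cxcl3, against 3918, 1774, 3442 and 162 CPM in those without. H2-Aa was at 990 and 1376 CPM, and Lyz2, lysozyme of myeloid cells, at 12057 and 15320 CPM. Depth moved with the split, with median UMIs of 9998 and 8407, and its part was not tested. The order was that of the Arg1-high cells, which had the most Spp1 and the least H2-Aa of the Ccr2 macrophages. In Control 20 of the 21 members with Arg1 held lymphocyte transcripts, so the same split was not read there.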

How the data were processed

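Single-cell RNA-Seq was analysed for 1 Control and 1 TTS library of CD45+ heart cells. The authors extracted barcodes with UMI-tools 1.0.0, aligned reads to mm10 with STAR 2.7.3a and counted with featureCounts 1.6.4, and the deposited values are these UMI counts without normalization. The annotation used for counting is not given in the sources used here, and older symbols (Emr1, Sepp1, Chi3l3, Irg1) were matched to current ones.

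The cell filters were those of the study: over 500 genes, below 6000 genes, and a mitochondrial share below 25%. Python 3.11.15, numpy 2.4.6, scipy 1.17.1, pandas 2.3.3 and matplotlib 3.10.9 were used. UMIs were summed over members, 0.5 was added and log2 ratios of CPM were taken for genes with a mean of at least 20 CPM. Intervals are exact Poisson, Clopper-Pearson or conditional binomial. The ratio step and its interval were tested on simulated sums. The cell gates, the shares and the thinning were not simulated. No doublet caller was run. As an alternative, barcodes with at least 2 UMIs of 24 T cell, NK cell and ILC2 genes, Areg not counted, were left out. Shares of barcodes with a UMI were taken after thinning to 2000 UMIs.

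Named genes are those of the rule, its markers, the 12 with the largest ratio each way with at least 100 CPM and 50 UMIs, 5 each way per gate, and genes of 40 lists. The members and lists were chosen with earlier results of these data known. Of the alternatives, 23 were fixed at the outset and 2 were chosen after seeing the data. Gene positions are from GENCODE on GRCm38.

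Some genes are not reported here.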

Additional observations from a re-analysis of the deposited data

Results flagged for a closer look

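For 6 flagged genes the log2 ratio, TTS over Control, had opposite signs in the members and in another gate. The difference was not tested in any of them. They are not all the genes with opposite signs. Mgst1, which was not flagged, was at 30.4 and 38.3 CPM in members and at 289 and 171 CPM in monocytes. Gata3 had -3.57 in members and 1.72 in resident macrophages, where it was at 10.5 and 34.6 CPM, and it was at 0 UMIs in members without lymphocyte transcripts. Mrc1 had -1.30 in members and 1.74 in monocytes, at 22.0 and 76.4 CPM. Pf4 had -1.15 in members and 3.75 in monocytes, where Control held 4 UMIs. Mt2, a metallothionein, had -2.23 in members and 1.20 in resident macrophages, at 142 and 326 CPM. Il7r, the interleukin 7 receptor, had -1.46 in members, 2.86 in resident macrophages and 1.14 in monocytes. Calca, which encodes calcitonin gene-related peptide, had -1.25 in members and 5.64 in resident macrophages, at 1.23 and 67.0 CPM. Without lymphocyte transcripts the ratios in members were -1.52 for Mrc1, -1.25 for Pf4, -1.33 for Mt2, -0.44 for Il7r and -1.79 for Calca.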

How the results depend on the processing

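The log2 ratio of the members' shares, TTS over Control, was 2.31 and stayed above 0 under the alternatives given here. Over Ccr2 macrophages of any Arg1 level, a different denominator, it was -0.60. It was 1.87 with Arg1 at 0 UMIs, 1.44 with no limits on other lineages, 0.98 and 1.12 with cells thinned to 4000 UMIs or to 2000 UMIs with lower limits, 1.99 over cells other than B cells, and 1.04 over cells with C1q and Ccr2. It was 3.42 with markers of other cells left out, and 3.19 and 3.51 with members of at least 2 or at least 1 lymphocyte UMIs left out, both chosen after seeing the data. With other cells' markers left out, 12 Control members remained and 1305 genes were lower. A minimum of 5 CPM gave 1584 lower genes, and one of 50 CPM gave 378 higher and 282 lower genes. As reported, 648 of 5664 genes tested were lower (11.4%). These settings also change which genes are tested, so the counts do not show whether the share of lower genes changed. Over 38 named genes, 612 values moved by less than their limit and 148 by more, and over 24 lists 425 medians moved by less than 0.25 log2 and 54 by more. The MHC class II median ranged from -2.52 to -1.59, that of matrix genes from 1.09 to 2.60 and that of chemokines from 1.11 to 1.92, whereas those of interferon-stimulated, lysosomal and lipid handling genes, chemokine and trafficking receptors and myeloid transcription factors changed sign. The cause was not tested. No paired analysis was possible because each group is 1 library, and no library could be left out.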

Other observations

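Receptors for debris and lipid were mixed among the members. Of 20 genes of pattern recognition and phagocytosis, 5 were at least 2-fold higher in TTS and 3 lower, with a median log2 ratio of 0.68, or 0.20 without lymphocyte transcripts. Clec4n, or dectin 2, was at 38.9 and 310 CPM and the scavenger receptor Msr1 at 67.6 and 399 CPM, with ratios of 2.98 and 2.55. The receptor tyrosine kinase Axl, which binds dying cells through GAS6, was at 207 and 62.1 CPM, and the fatty acid receptor Cd36 at 186 and 61.1 CPM, with ratios of -1.74 and -1.61. Of 16 lipid handling genes, 5 were higher and 1 lower. Fabp5, a fatty acid binding protein, was at 16.1 and 81.9 CPM, and Lgals3, galectin 3, at 475 and 2594 CPM.

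Of 11 genes of alternative activation and arginine metabolism, 4 were at least 2-fold higher in TTS members and 2 lower, with a median of 0.31. Srm, which makes spermidine, had a log2 ratio of 2.78, Ass1, argininosuccinate synthase, one of 2.17, and Odc1, ornithine decarboxylase, one of 1.20. Without lymphocyte transcripts the ratios were 3.28, 2.39 and 0.95. Of 10 glucocorticoid response genes, 2 were at least 2-fold higher and 2 lower, with Ddit4 at 2.61, Fkbp5 at 0.70, Tsc22d3 at -0.99 and Mt2 at -2.23. Without lymphocyte transcripts these were 3.26, 1.48, -1.20 and -1.33.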
